A study of Homo sapiens with 6 samples.

Results

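Bone morphogenetic proteins (BMPs) and activins are secreted ligands of the TGF-β superfamily. They bind pairs of type I and type II receptor kinases, and the activated receptors phosphorylate SMAD1, SMAD5 and SMAD9 for BMPs or SMAD2 and SMAD3 for activins. Secreted antagonists such as GREM1 and FST bind the ligands outside the cell, and the ID genes, which encode proteins that sequester E-protein transcription factors, are classical targets of BMP-activated SMADs. The 9 genes described here are the ligand genes BMP2, BMP4, BMP6 and INHBA, the antagonist genes GREM1 and FST, and the target genes ID1, ID2 and ID3. They were chosen by symbol, with earlier results of these data known, and all 9 are among the 25368 symbols of each of the 2 expression tables.

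RNA-seq was performed on 6 libraries of MRC5, a line of human embryonic lung fibroblasts immortalised with hTERT, with 1 library per condition. In the JUN overexpression table, all 3 cultures were infected with adenovirus, which carried an empty vector (control), FLAG-tagged wild-type JUN (JUN WT) or FLAG-tagged JUN whose JNK phosphorylation sites were replaced by alanine (JUN AA). In the JNKi table, untreated MRC5 cells were compared with induced CAFs (iCAFs), a model of cancer-associated fibroblasts made by 7 days in conditional medium (CM) of the MDA-MB-231 breast cancer line, and with iCAFs+JNKi, treated with 1 µM of the JNK inhibitor JNK-IN-8 for 48 h. This CM was collected in DMEM without serum. Per the methods, MRC5 cells were routinely kept in DMEM with serum, but the medium of the untreated MRC5 library itself is not stated. An effect of tumour-cell factors and one of serum or medium therefore cannot be told apart. The protocol names DMSO as vehicle, but the label of the iCAFs library does not say that it received it. Because each condition is 1 library, no difference below has a replicate check, no test was made and no p-value is given.

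The values are FPKM, fragments scaled to exon length and to the mapped fragments of the library, which may be compared between genes within a library. Differences are log2(FPKM + 1) of one library minus the other of the same table, a scale that understates differences of low genes, and a difference of at least 1 is called 2-fold. Counts and medians use genes whose mean reached 1 FPKM over the 3 libraries of a table, which left 10311 genes for JUN overexpression and 11780 for JNKi. Of the 9 genes, 8 passed this filter in both tables, and BMP6 did not pass in either. JUN itself was at 25.5 (control), 4543 (JUN WT) and 291 FPKM (JUN AA), so the JUN WT and JUN AA cultures differed in the amount of JUN mRNA as well as in its phosphorylation sites. Of the 10 fibroblast markers, 10 were at 1 FPKM or more in every library, with sums from 4025 to 6282 FPKM. The epithelial list of 8 genes summed to between 20.02 and 56.4 FPKM, nearly all of it KRT8 and KRT18, and CDH1 and ESRP1 were at 0 in every library. The endothelial list summed to at most 11.03 FPKM, with TEK at 10.4 FPKM in iCAFs+JNKi and PECAM1 at or near 0 throughout. The leukocyte list was at 31.2 to 86.1 FPKM through CD68, with CD3E at 0 in every library. The list for smooth muscle or pericytes summed to between 30.2 and 144 FPKM. The part of these markers in the values below was not tested.

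The levels showed a wide range among the 9 genes. ID3 was at 123 FPKM in the control library, above 93.7% of the genes that passed the filter, and BMP6 was listed at 0 there. In MRC5, GREM1 stood highest at 187 FPKM, above 97.2% of genes, whereas ID1, ID2 and ID3 were at 9.61, 9.37 and 10.1 FPKM, close to the middle gene of that library. FPKM of the 2 tables were computed separately and were not compared.

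**Figure D1:**
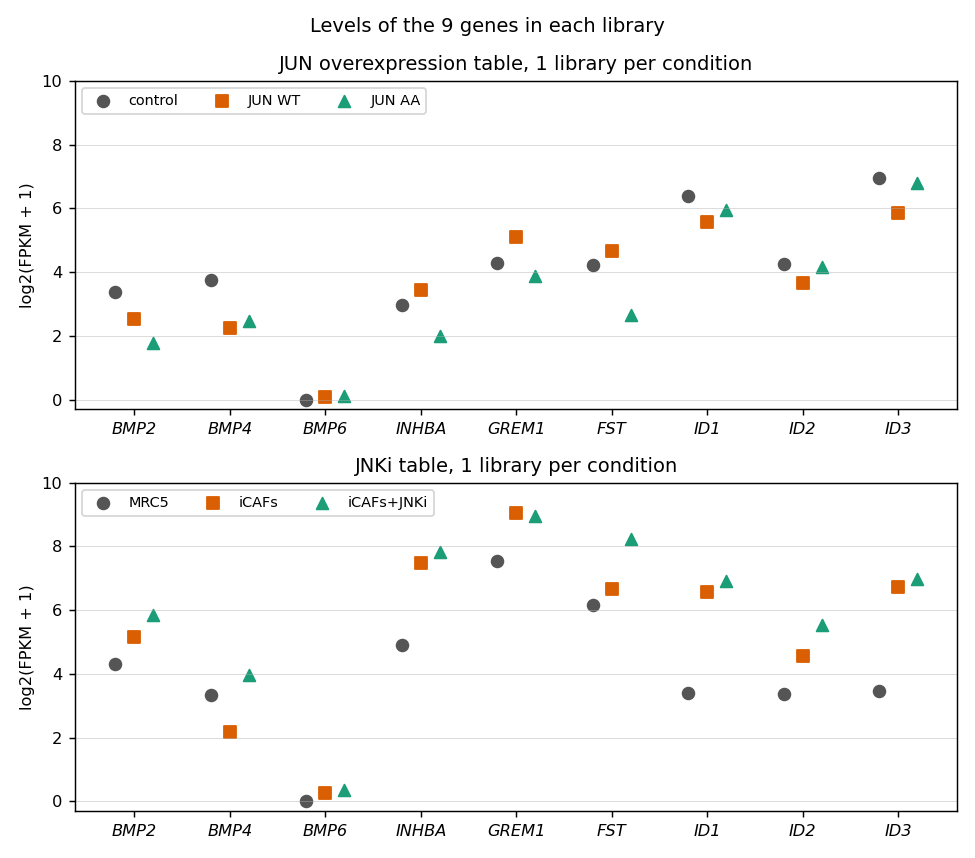
Level of each of the 9 genes in each library as log2(FPKM + 1), with 1 point per library, the JUN overexpression table above and the JNKi table below. ID1 and ID3 lie at 3.41 and 3.48 in MRC5 and between 6.57 and 6.97 in iCAFs and iCAFs+JNKi, and BMP6 lies near 0 in all 6 libraries.

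The promoters of ID1 and ID3 are shown because no gene had a pattern closer to ID1 than ID3, and no gene one closer to ID3 than ID1, as described below, and that of GREM1 because it holds a SMAD1/5 motif. Each line is the 250 bases before a RefSeq start, taken from the RefSeq promoter table built on GRCh38.p14 and matched, as a single exact copy, to GRCh37, the assembly also called hg19. The ID1 window is chr20:30192842-30193091 on the plus strand, the ID3 window is chr1:23885993-23886242 on the minus strand and the GREM1 window is chr15:33009955-33010204 on the plus strand. Capitals mark TATAA or its reverse complement TTATA in ID1 and ID3, and GGCGCC, a sequence bound by SMAD1 and SMAD5, in GREM1.
ID1: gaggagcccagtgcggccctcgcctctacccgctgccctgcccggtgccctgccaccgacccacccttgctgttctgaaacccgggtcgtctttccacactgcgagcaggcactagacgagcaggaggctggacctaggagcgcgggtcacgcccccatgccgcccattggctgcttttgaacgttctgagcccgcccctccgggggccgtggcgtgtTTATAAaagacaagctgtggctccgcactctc
ID3: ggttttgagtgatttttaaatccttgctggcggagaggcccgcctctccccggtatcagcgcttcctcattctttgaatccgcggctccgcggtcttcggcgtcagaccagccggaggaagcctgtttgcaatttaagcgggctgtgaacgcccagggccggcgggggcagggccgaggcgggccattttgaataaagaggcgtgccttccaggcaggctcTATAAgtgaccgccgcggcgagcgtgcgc
GREM1: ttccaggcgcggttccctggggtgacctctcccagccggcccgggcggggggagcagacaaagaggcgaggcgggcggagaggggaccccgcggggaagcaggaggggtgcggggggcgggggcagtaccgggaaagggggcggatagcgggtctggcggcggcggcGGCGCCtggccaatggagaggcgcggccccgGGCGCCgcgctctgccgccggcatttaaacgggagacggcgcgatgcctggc

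The sequences differ in the elements they hold. TATAA begins 31 bases before the ID1 start, 29 bases before the ID3 start and 11 bases before the INHBA start, TTATA begins 28 bases before a BMP4 start, and 20.4% of all 35116 RefSeq windows hold it on either strand. GGCGCC occurs at 83 and 52 bases before the GREM1 start and also in a BMP4 window, and 19.2% of all windows hold it. The AP-1 heptamer TGACTCA, whose reverse complement is TGAGTCA, occurs in 4.95% of all windows, the CRE octamer TGACGTCA in 1.85% and the SMAD box palindrome GTCTAGAC in 0.202%. None of these last 3 motifs, searched on both strands, was found in the 11 windows of the 8 genes matched, which are all but BMP2. A match of letters is a description of the window and not evidence of a bound site.

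The comparison of iCAFs with MRC5 asks what tumour-cell medium changes in fibroblasts, and among the 8 genes ID1 and ID3 differed most in it. ID1, on chromosome 20 of GRCh37 from 30193086 to 30194318, was at 9.61 (MRC5), 94.0 (iCAFs) and 119.7 FPKM (iCAFs+JNKi). The FPKM in iCAFs was 9.78 times that in MRC5, a log2 difference of 3.16 that 0.187% of genes exceeded. ID3, on chromosome 1 from 23884417 to 23885992, was at 10.1 (MRC5), 104.8 (iCAFs) and 125 FPKM (iCAFs+JNKi), a log2 difference of 3.25 between iCAFs and MRC5. In both genes MRC5 was the low library, and iCAFs+JNKi exceeded iCAFs by log2 differences of 0.34 in ID1 and 0.25 in ID3, which 11.2% and 15.6% of genes exceeded. In bulk RNA, more cells with ID1 or ID3 and more ID mRNA per cell cannot be told apart.

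ID2, on chromosome 2 from 8818975 to 8824591, had the same order of libraries as ID1 and ID3 but steps of other sizes. It was at 9.37 (MRC5), 22.7 (iCAFs) and 45.4 FPKM (iCAFs+JNKi), or 2.42 times the MRC5 level in iCAFs. Each library was above the one before. It shares exon bases with the antisense gene ID2-AS1. The log2 differences were 1.19 for iCAFs against MRC5 and 0.97 for iCAFs+JNKi against iCAFs. Within a library, which removes any scaling between libraries, ID1 was 1.03 times ID2 in MRC5, 4.14 times in iCAFs and 2.63 times in iCAFs+JNKi. ID3 stayed at 1.04 to 1.11 times ID1 in the JNKi table. In the JUN overexpression table ID3 was 1.495 (control), 1.224 (JUN WT) and 1.785 times ID1 (JUN AA).

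INHBA encodes the subunit of activin A and was also high in both iCAFs libraries. The gene, on chromosome 7 from 41706766 to 41745432, was at 29.2 (MRC5), 179 (iCAFs) and 225 FPKM (iCAFs+JNKi). Its log2 difference in iCAFs against MRC5 was 2.58, exceeded by 36 of the 11780 genes, and that with JNKi relative to iCAFs was 0.32. INHBA shares exon bases with the antisense gene INHBA-AS1, and the sources used here do not say whether counting used strand, so reads of the pair may not be separated.

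The 2 BMP ligand genes above the filter differed in direction. BMP2, on chromosome 20 from 6748333 to 6760893, was at 18.9 (MRC5), 34.6 (iCAFs) and 56.8 FPKM (iCAFs+JNKi), with each condition above the one before. Its log2 differences were 0.84 for iCAFs and 0.70 for the step to iCAFs+JNKi. BMP4, on chromosome 14 from 54416454 to 54425479, was at 9.07, 3.57 and 14.8 FPKM, so that it was lowest in iCAFs and highest with JNKi. The log2 difference of BMP4 was -1.14 for iCAFs against MRC5 and 1.79 for iCAFs+JNKi against iCAFs, and 0.552% of genes exceeded the latter. BMP2 was thus 2.08 times BMP4 in MRC5, 9.68 times in iCAFs and 3.85 times in iCAFs+JNKi. BMP6, on chromosome 6 from 7726332 to 7881961, had 0 (MRC5), 0.198 (iCAFs) and 0.288 FPKM (iCAFs+JNKi). At such levels and an unknown depth no difference in BMP6 can be read, and it shares exon bases with TXNDC5. BMP4 shares exon bases with an unnamed gene model.

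Among the antagonists, GREM1, which binds BMP2 and BMP4, lies on chromosome 15 from 33010205 to 33037307 and shares exon bases with GREM1-AS1. It was at 187 (MRC5), 529.7 (iCAFs) and 494 FPKM (iCAFs+JNKi). The log2 difference was 1.5 for iCAFs against MRC5, whereas that for iCAFs+JNKi against iCAFs was -0.10, at a median of all genes of -0.099; after scaling FPKM to a common sum it became 0.028. FST, which encodes the activin-binding protein follistatin, lies on chromosome 5 from 52776456 to 52782964. It was at 71.0 (MRC5), 99.9 (iCAFs) and 301 FPKM (iCAFs+JNKi), so that the high library was the inhibited one. The log2 difference of FST was 0.49 for iCAFs against MRC5 and 1.58 for iCAFs+JNKi against iCAFs, exceeded by 6.15% and 0.798% of genes.

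As a group, 5 of the 8 genes were at least 2-fold higher in iCAFs than in MRC5 (ID1, ID2, ID3, INHBA and GREM1), against 1.94% of all genes, and 1 (BMP4) was at least 2-fold lower, against 1.71%. Their median log2 difference was 1.35, and that of all genes was -0.061. With JNKi, 2 of the 8 (BMP4 and FST) were at least 2-fold higher than in iCAFs, against 2.25% of all genes, and 0 were 2-fold lower, against 1.97%. ID2, at 0.97, was also past 2-fold with FPKM rescaled (1.12), centred (1.07) or with length and GC trends removed (1.16). The median log2 difference was 0.52, and that of all genes -0.099. GREM1 was the 1 gene of the 8 that was lower with JNKi than in iCAFs, a direction that turned with FPKM rescaled. Beside these values, the summed smooth muscle or pericyte markers were at 50.6, 30.2 and 100.7 FPKM in MRC5, iCAFs and iCAFs+JNKi. In iCAFs+JNKi most of this was RGS5, at 68.9 FPKM, while CNN1 was at 31.5 FPKM there and 39.95 FPKM in MRC5. The part of these markers in the result was not tested. These 2 comparisons share the iCAFs library, so an error in that library enters both with opposite signs. The comparison of iCAFs+JNKi with MRC5 leaves out the iCAFs library but shares the MRC5 library with that of iCAFs against MRC5. An error in the MRC5 library enters both of these with the same sign. Compared with MRC5, 7 of the 8 genes were at least 2-fold higher in iCAFs+JNKi, against 3.28% of all genes, and 0 were 2-fold lower, against 3.53%. BMP4, at a log2 difference of 0.65, was the exception. The median was 2.11, and that of all genes -0.16.

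**Figure D2:**
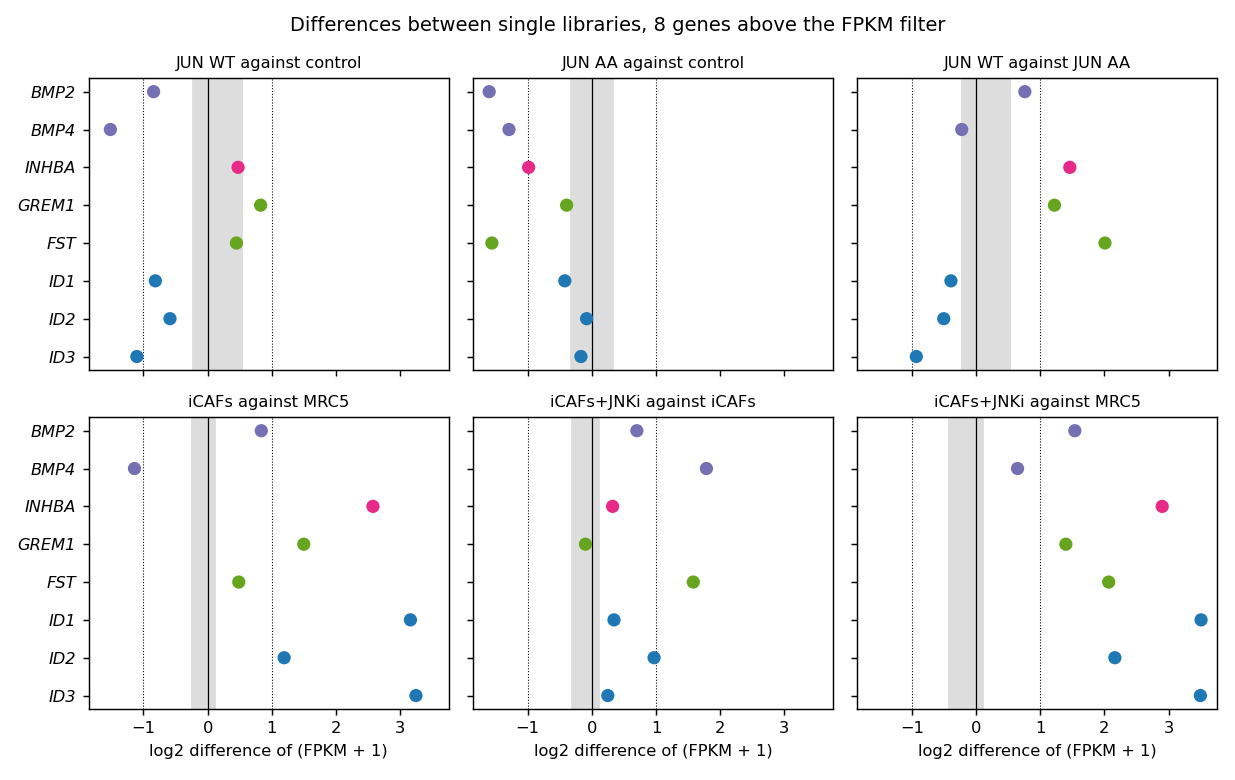
Log2 difference of (FPKM + 1) between single libraries for the 8 genes above the filter, with BMP ligands in purple, INHBA in pink, antagonists in green and ID genes in blue. The grey band spans the lower to upper quartile of all genes (-0.24 to 0.11 for iCAFs against MRC5), dotted lines mark 2-fold, and ID1 and ID3 lie beyond 3 in iCAFs and in iCAFs+JNKi against MRC5.

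The JUN overexpression libraries ask whether JUN, and its phosphorylation sites, change the same genes. ID3 was at 123 (control), 56.9 (JUN WT) and 109.6 FPKM (JUN AA). ID1 was at 82.6 (control), 46.5 (JUN WT) and 61.4 FPKM (JUN AA), and ID2 at 18.0, 11.6 and 16.9 FPKM. In all 3 ID genes JUN WT was the low library and JUN AA lay between it and the control. The log2 differences in JUN WT against control were -1.10 for ID3, -0.81 for ID1 and -0.59 for ID2, and 2.62%, 5.63% and 9.94% of genes lay below them. In JUN AA they were -0.17, -0.42 and -0.082. Scaling every library to an equal FPKM sum moved these JUN AA values to -0.48, -0.73 and -0.38. JUN WT against JUN AA then gave -0.64 for ID3, -0.10 for ID1 and -0.23 for ID2. Without this scaling the values were -0.93, -0.39 and -0.50. The order of the libraries held, but the gap between JUN WT and JUN AA narrowed and was small for ID1. With trends in transcript length and GC content removed, ID2 in JUN WT was at -1.02 and so past 2-fold, while ID3 was at -0.96 and no longer past it.

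Both BMP ligand genes were low in both JUN libraries. BMP4 was at 12.6 (control), 3.74 (JUN WT) and 4.54 FPKM (JUN AA), log2 differences of -1.52 and -1.29. BMP2 was at 9.40, 4.80 and 2.43 FPKM, log2 differences of -0.84 and -1.60. Both comparisons share the control library. BMP6 had 0 (control), 0.0653 (JUN WT) and 0.0934 FPKM (JUN AA).

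INHBA, GREM1 and FST lay on opposite sides of the control in the 2 JUN libraries. INHBA was at 6.89 (control), 9.96 (JUN WT) and 2.98 FPKM (JUN AA). FST was at 17.7, 24.5 and 5.33 FPKM, and GREM1 at 18.4, 33.4 and 13.7 FPKM. In each of these genes JUN WT was the high library and JUN AA the low one. The log2 differences in JUN WT against control were 0.47 for INHBA, 0.45 for FST and 0.83 for GREM1, at a median of all genes of 0.15. With trends in transcript length and GC content removed they were 0.18, 0.023 and 0.66, so that FST in JUN WT was then close to the median of genes of like length and GC content. In JUN AA against control they were -0.99, -1.56 and -0.39.

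Set directly against JUN AA, which leaves the control out, FST in JUN WT was 4.59 times as high, INHBA 3.34 times and GREM1 2.43 times. The log2 differences were 2.01, 1.46 and 1.22, exceeded by 0.805%, 1.90% and 3.63% of genes. BMP2 was also higher in JUN WT than in JUN AA, with a log2 difference of 0.76, and ID3 was lower, with one of -0.93. BMP4 was at -0.22, which became 0.018 when FPKM were rescaled to the same sum. With trends in transcript length and GC content removed, FST was at 1.54, INHBA at 1.32 and GREM1 at 1.205. BMP2 was then at 0.24, ID3 at -0.81 and BMP4 at -0.60. As JUN mRNA also differed (4543 against 291 FPKM), the amount of JUN and its phosphorylation sites cannot be told apart.

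In counts, 0 of the 8 genes were at least 2-fold higher in JUN WT than in the control, against 6.92% of all genes, and 2 (BMP4 and ID3) were lower, against 3.39%, or BMP4 and ID2 with the trends removed. Their median was -0.70, and that of all genes 0.15. Beside these values, in control, JUN WT and JUN AA, the summed smooth muscle or pericyte markers were at 144, 84.4 and 80.7 FPKM. In the same order, the epithelial ones were at 56.4, 21.99 and 20.02 FPKM and CD68 at 32.6, 85.7 and 31.1 FPKM. The summed fibroblast markers were at 6282, 5565 and 4673 FPKM, and single ones differed in direction. PDGFRB was at 60.4, 13.8 and 15.8 FPKM, FAP at 8.85, 11.8 and 17.5 FPKM and VIM at 1480, 2927 and 1591 FPKM. The part of these markers in the result was not tested. In JUN AA, which has the highest FPKM sum of its table (613184 against 494603 in the control), 0 were at least 2-fold higher, against 5.29% of all genes, and 3 (BMP2, FST and BMP4) were lower, against 3.77%. The median was -0.70, and that of all genes -0.015. With FPKM rescaled to the same sum INHBA was at -1.35 there and so also past 2-fold, as it was with a pseudocount of 0.1 (-1.18) and with the trends removed (-1.18), where BMP4, at -0.96, was not. In JUN WT against JUN AA, 3 (FST, INHBA and GREM1) were at least 2-fold higher, against 6.65%, and 0 lower, against 5.61%, with a median of 0.27 beside 0.18 for all genes. BMP2 reached 1.10 in this comparison with FPKM rescaled, but was at 0.24 with the trends removed. ID3 reached -1.12, and so was 2-fold lower, when centred on the median gene. The median of the 8 was 0.084 when centred and 0.025 with the trends removed.

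Ratios of an antagonist to its ligand within a library do not depend on how libraries were scaled, and were chosen after the values were seen. They still hold any trend with transcript length or GC content that differs between libraries. In JUN AA against control, removing these trends moved GREM1 from -0.39 to -0.58, BMP2 from -1.60 to -1.27 and BMP4 from -1.29 to -0.96. FST was 2.43 times INHBA in MRC5, 0.557 times in iCAFs and 1.34 times in iCAFs+JNKi, so iCAFs were the library in which activin subunit mRNA exceeded follistatin mRNA. In the JUN overexpression table the ratio was 2.57 (control), 2.46 (JUN WT) and 1.79 (JUN AA). GREM1 was 6.67 times the sum of BMP2 and BMP4 in MRC5, 13.9 times in iCAFs and 6.90 times in iCAFs+JNKi. In the JUN overexpression table it was 0.837 times that sum in the control, 3.91 times in JUN WT and 1.97 times in JUN AA. The GREM1 ratio was thus highest in the iCAFs and JUN WT libraries of their tables. Both ratios compare mRNA levels, which are not amounts of secreted protein.

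**Figure D3:**
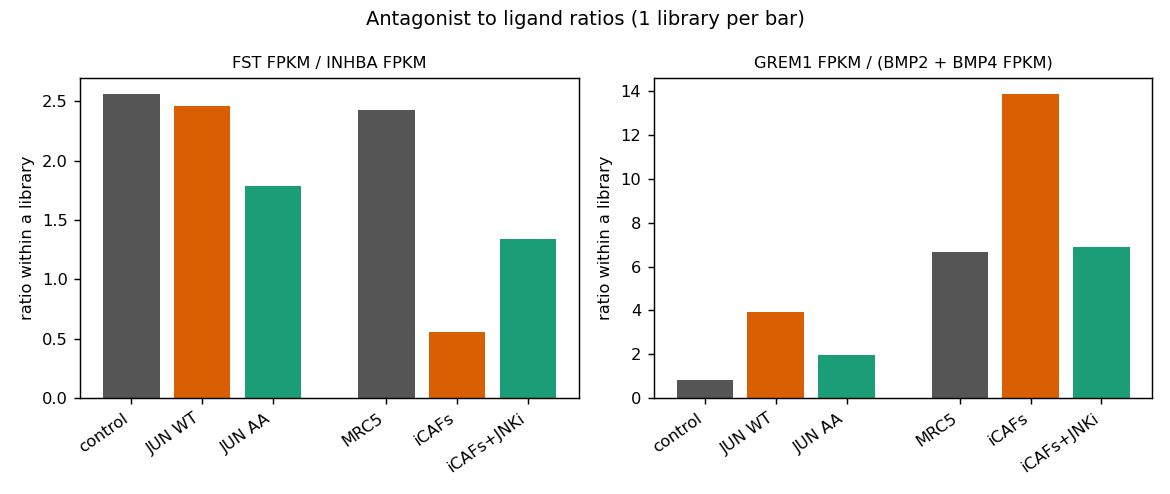
Ratio of FST to INHBA FPKM (left) and of GREM1 to the sum of BMP2 and BMP4 FPKM (right), 1 bar per library, with the JUN overexpression table on the left of each panel and the JNKi table on the right. The FST to INHBA ratio is 0.557 in iCAFs against 2.43 in MRC5, and the GREM1 ratio is 13.9 in iCAFs against 6.67 in MRC5.

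The other genes of the pathway were taken from lists by role, and a gene could pass the filter through its high library alone. None of the counts in the lists was tested. Of the receptors and co-receptors, 0 of 11 that passed in the JNKi table were at least 2-fold higher in iCAFs than in MRC5 (1.94% of all genes) and 1 was lower (1.71% of all genes), with a median log2 difference of -0.076 beside -0.061 for all genes. Chosen after its values were seen, the type II BMP receptor gene BMPR2 was at 12.4, 13.6 and 19.8 FPKM in MRC5, iCAFs and iCAFs+JNKi, and the type I receptor gene ACVR1 at 19.0, 16.7 and 18.4 FPKM. The lower one was TGFBR3, for the co-receptor betaglycan, which was at 6.52, 2.61 and 1.06 FPKM. RGMB, a BMP co-receptor gene, was at 123, 98.96 and 24.6 FPKM, a log2 difference of -1.96 with JNKi against iCAFs, and was the 1 of 11 that was at least 2-fold lower in that comparison (1.97% of all genes). In the JUN overexpression table RGMB was at 9.22 (control), 37.9 (JUN WT) and 15.3 FPKM (JUN AA), and was the 1 of 9 receptors that was 2-fold higher in JUN WT than in the control (6.92% of all genes).

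Among the remaining ligands, GDF5, a regulator of joint formation, was at 8.76 (control), 21.5 (JUN WT) and 28.6 FPKM (JUN AA), and at 11, 2.19 and 1.36 FPKM in MRC5, iCAFs and iCAFs+JNKi. GDF15, a stress-responsive member of the superfamily, was at 143, 102.6 and 27.1 FPKM in control, JUN WT and JUN AA, and at 33.8, 68.7 and 49.5 FPKM in the JNKi table. Both JUN libraries were thus above the control for GDF5 and below it for GDF15. Among the antagonists and binding proteins, FSTL1, which encodes a follistatin-like secreted protein, was at 141 FPKM in MRC5 and 295 FPKM in iCAFs and so, like GREM1, past 2-fold. NBL1, a BMP antagonist gene, was 2-fold lower in JUN WT. It was at 109 (control), 46.4 (JUN WT) and 100.3 FPKM (JUN AA). BMPER, for a secreted BMP-binding protein, was at 0.622, 2.41 and 1.52 FPKM in control, JUN WT and JUN AA, and at 4.68, 5.42 and 1.80 FPKM in MRC5, iCAFs and iCAFs+JNKi.

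Of the SMAD genes and SMAD ubiquitin ligases, 2 of 10 were at least 2-fold higher in iCAFs than in MRC5 (1.94% of all genes) and 0 lower (1.71%). They were SMAD7, which encodes an inhibitory SMAD and was at 4.21 FPKM in MRC5 and 11.7 FPKM in iCAFs, and SMAD1, at 1.96 and 5.03 FPKM. SMURF2, a ubiquitin ligase gene, was at 11.2 FPKM in the control and 23.5 FPKM in JUN WT, and was the 1 of 9 in this list at least 2-fold higher there (6.92% of all genes). The list of other BMP-responsive genes, which also holds SMAD6, SMAD7 and SMAD9 of the SMAD list and BAMBI of the receptor list, had a median log2 difference of 0.41 between iCAFs and MRC5, and with JNKi it was 0.58 relative to iCAFs, beside -0.061 and -0.099 for all genes. In the latter, 3 of 10 were at least 2-fold higher (2.25% of all genes) and 0 lower (1.97%). They were SMAD9, at 2.61 and 7.80 FPKM, ATOH8, at 4.48 and 10.7 FPKM, and SMAD6, at 2.88 and 7.22 FPKM. In iCAFs+JNKi against MRC5, 6 of the 10 were at least 2-fold higher (3.28% of all genes). Of the rest that passed, named after their values were seen, MSX1 was at 1.86, 2.55 and 2.01 FPKM in MRC5, iCAFs and iCAFs+JNKi, MSX2 at 5.17, 3.78 and 4.598 FPKM and GATA2 at 1.47, 1.77 and 1.69 FPKM, so these 3 were not highest with JNKi. In the JUN overexpression table, JUN WT was below the control for 5 of the 6 that passed, with a median of -0.44, beside 0.15 for all genes, of which 60.9% were above the control. ATOH8, at 6.74, 2.36 and 5.27 FPKM, was the 1 at least 2-fold lower (3.39% of all genes). JUN AA was below the same control library for all 6, with a median of -0.34, beside -0.015 for all genes, of which 48.6% were above the control. Values below the control were thus not particular to JUN WT. Set against JUN AA, JUN WT was higher for 3 of the 6 and lower for 3, with a median of 0.044 beside 0.18 for all genes.

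ID4, the fourth ID gene, was at 0.080 (MRC5), 1.00 (iCAFs) and 7.38 FPKM (iCAFs+JNKi), so its high library was the inhibited one. The genes for the E proteins that ID proteins bind were named after their values were seen. TCF3 was at 18.9, 20.9 and 17.1 FPKM in that table and TCF12 at 15.9, 12.8 and 15.8 FPKM, while TCF4 was at 2.56, 3.63 and 6.11 FPKM. In the JUN overexpression table TCF3 was at 18.8 (control), 11.7 (JUN WT) and 9.70 FPKM (JUN AA). TCF12 went the other way in JUN WT, with 3.89 (control), 5.15 (JUN WT) and 3.94 FPKM (JUN AA). TCF4 did not pass the filter there, with 1.185 (control), 0.762 (JUN WT) and 0.798 FPKM (JUN AA). The E-protein genes thus had no common direction in JUN WT.

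**Figure D4:**
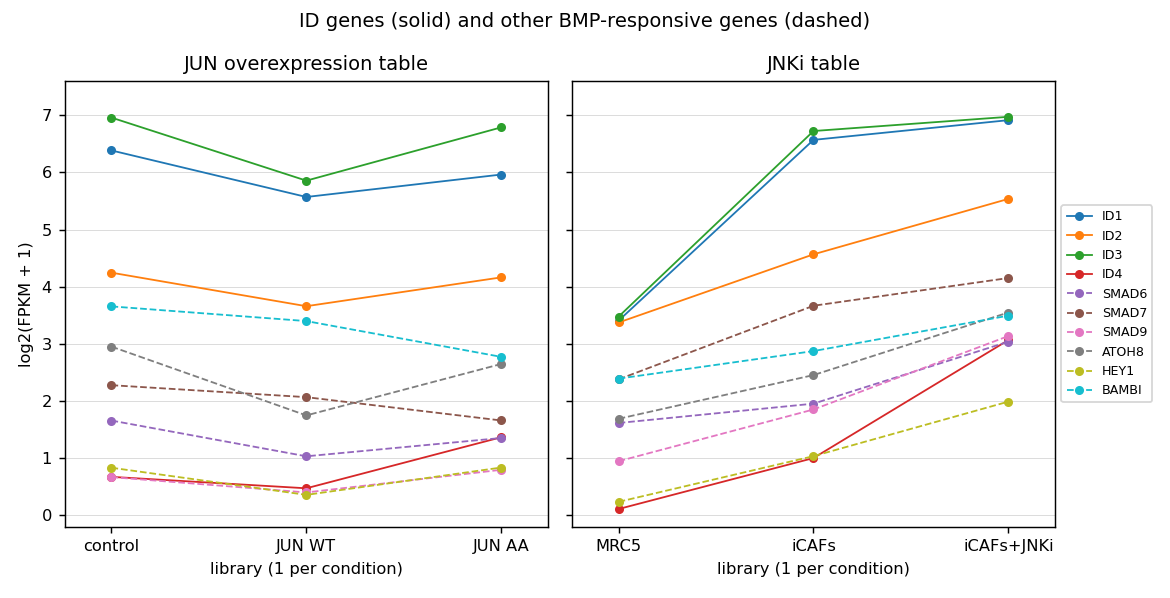
Level of the 4 ID genes (solid lines) and of 6 other BMP-responsive genes (dashed lines) as log2(FPKM + 1) in the 3 libraries of each table, with lines joining single libraries. The 6 were picked for display after their values were seen. The 10 genes drawn are highest in iCAFs+JNKi in the right panel, whereas MSX1, MSX2 and GATA2 of the same list, not drawn, are not, and ID1, ID2 and ID3 are lowest in JUN WT in the left panel.

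The likeness of patterns was measured as the Euclidean distance over 4 log2 differences (JUN WT and JUN AA against control, iCAFs against MRC5, iCAFs+JNKi against iCAFs) across the 10020 genes that passed the filter in both tables. For ID1 the nearest of all genes was ID3, and for ID3 it was ID1, at a distance of 0.404, and the next gene for both was TMEM132A, at 1.11 and 1.36. No other pair among the 8 genes was as close. The nearest gene to ID2 was SOX4, at a distance of 0.346, followed by ADAM12. BMP2 was nearest to NID1 and ITGB5, BMP4 to DAAM2 and TNFSF4, and FST to APCDD1L and ADM. INHBA was nearest to TGFBI, at 1.10, and GREM1 to CDK2, at 0.465, and EREG came second for both. The distance rests on single libraries and describes these libraries alone.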

How the data were processed

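RNA-seq of 6 MRC5 libraries was analysed from the FPKM tables that the authors deposited, 1 for the JUN overexpression and 1 for the JNKi experiment. Per the labels and methods, reads were aligned to hg19 with HISAT2 2.1.0 and FPKM were computed with StringTie 2.1.1, and a strand setting is not given in the sources used here. FPKM are scaled to depth and gene length, so the depth and the counting error of a value are unknown. No sample column was left out (0 not used). Differences of log2(FPKM + 1) were computed within a table, after a filter on a mean of at least 1 FPKM, with Python 3.11.15, numpy 2.4.6 and pandas 2.3.3, and plots were drawn with matplotlib 3.10.9. With 1 library per condition no test was possible, and the scripts were checked on simulated data. Named were the 9 genes, up to 3 genes per list, direction and comparison that reached 2-fold, the 2 genes most like each of the 8 in pattern, and JUN. The genes and lists were chosen with earlier results of these data known, and the within-library ratios and the TATAA motif were added after the values were seen. Alternatives were a pseudocount of 0.1, no filter or a mean of 5 FPKM, FPKM rescaled to a sum of 1000000, centring on the median gene, and removal of trends in transcript length and GC content, which were known for 91.1% and 90.4% of the genes that passed. Some members of the marker and pathway lists are not reported here.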

Additional observations from a re-analysis of the deposited data

Results flagged for a closer look

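INHBA, GREM1 and FST lay above the control in JUN WT and below it in JUN AA. The log2 difference between JUN WT and JUN AA was 1.46 for INHBA, 1.22 for GREM1 and 2.01 for FST. With trends in transcript length and GC content removed, JUN WT against control was 0.18 for INHBA, 0.66 for GREM1 and 0.023 for FST. JUN WT against JUN AA was then 1.32, 1.205 and 1.54. These differences were not tested, since each condition is 1 library, and both comparisons with the control share that library.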

How the results depend on the processing

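With each alternative, 48 log2 differences of the 8 genes were recomputed. A change of filter only selects genes and leaves the difference of a gene as it was. Centring shifts all genes of a comparison by the same amount, which was at most 0.184. These settings therefore could not move a difference by more than 0.25. Of the 48, 16 moved by more than 0.25 with FPKM rescaled to the same sum, 11 with length and GC trends removed and 1 with a pseudocount of 0.1. None of the differences past 2-fold changed sign. The median of the genes in JUN AA against control was -1.04 with rescaled FPKM and -0.42 with no filter, against -0.70. That in JUN WT against JUN AA was 0.56 with rescaled FPKM, against 0.27, and -0.038 with no filter, where BMP6 enters as the ninth gene. The share of higher genes among all 2-fold genes also moved. In JUN WT against control it was 67.1%, 45.5% when centred on the median gene and 51.2% with trends removed. In JUN AA against control it was 58.4%, and 26.1% with rescaled FPKM. In JUN WT against JUN AA it was 54.3%, 82.9% rescaled and 33.3% centred. In iCAFs+JNKi it was 53.3% against iCAFs, 64% centred and 66.6% with trends removed, and 48.1% against MRC5, 59.3% rescaled, 65.9% centred and 68.1% with trends removed. The cause of these shifts was not tested. No paired analysis was possible because each condition has 1 library. Depth is unknown, so no limit can be set on BMP6.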
